A study of Drosophila melanogaster with 2 samples.

Results

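Eip74EF, Eip75B, Eip78C, br and Blimp-1 encode transcription factors of the early ecdysone response, and binding of CG8216-eGFP was described at these 5 of 13945 protein-coding genes. They were taken by name from Ensembl release 115 gene models on Release 6 of the Drosophila melanogaster genome (dm6). A gene's locus is its body plus 5 kb upstream of its 5′ end, and everything bound within it was kept. The 5 loci held 35 of the 5944 summits in the authors' list of reproducible peaks, a summit being the base of highest enrichment within a peak. ChIP-seq, which sequences the DNA recovered with a protein by immunoprecipitation, was done with an anti-GFP antibody on whole prepupae, males and females pooled, from a transgenic line that stably expressed CG8216 (spab) with GFP at its C terminus. There was 1 group with 2 biological replicates, and the labels give an age of 24 days, which is doubtful for prepupae. Binding was therefore read from a fusion protein in 1 line at 1 stage, and no untagged group was analysed here. Whole animals were used, so fewer cells with binding and less binding per cell cannot be told apart.

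Ecdysone is the steroid hormone of insect molting and metamorphosis. It binds a heterodimer of the nuclear receptors EcR and usp, which directly induces a small set of early genes, and the early proteins in turn regulate one another and later genes. Several early genes are long and start transcription at several promoters. Isoforms with different first exons, DNA-binding domains or partners are made from a single gene.

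Sequences under the strongest summit of each gene, and at a start site of Eip74EF and of br, are given because binding at these genes is described by where it lay. They are the forward strand of dm6 from RefSeq, centred on the summit over 200 bp except where an exon shortened the window. Capitals mark CAGTGTA or CAGTGCA, with the other strand of these, as well as CACTGAG and the word GGTCA, whose other strand reads TGACC.
Eip74EF, strongest summit, chr3L:17578445-17578644: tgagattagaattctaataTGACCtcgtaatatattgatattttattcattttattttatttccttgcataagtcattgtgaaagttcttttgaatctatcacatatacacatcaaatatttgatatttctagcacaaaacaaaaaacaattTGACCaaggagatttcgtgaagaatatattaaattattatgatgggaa
Eip74EF, start-site summit, chr3L:17619326-17619462: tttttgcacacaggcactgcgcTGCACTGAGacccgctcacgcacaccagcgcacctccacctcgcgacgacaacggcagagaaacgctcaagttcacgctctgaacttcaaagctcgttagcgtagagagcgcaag
Eip75B, strongest summit, chr3L:18009079-18009278: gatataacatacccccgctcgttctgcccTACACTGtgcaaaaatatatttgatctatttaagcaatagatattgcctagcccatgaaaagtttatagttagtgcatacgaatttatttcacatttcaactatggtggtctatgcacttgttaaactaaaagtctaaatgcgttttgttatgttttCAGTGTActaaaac
Eip78C, strongest summit, chr3L:21253789-21253988: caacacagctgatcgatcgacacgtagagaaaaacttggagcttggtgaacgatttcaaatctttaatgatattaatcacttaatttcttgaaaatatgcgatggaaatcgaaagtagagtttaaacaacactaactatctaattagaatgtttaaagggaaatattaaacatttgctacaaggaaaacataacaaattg
br, strongest summit, chrX:1607793-1607992: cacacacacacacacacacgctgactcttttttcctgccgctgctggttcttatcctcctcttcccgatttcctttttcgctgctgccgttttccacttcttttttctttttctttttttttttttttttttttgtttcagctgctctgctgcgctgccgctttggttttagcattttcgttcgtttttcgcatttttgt
br, start-site summit, chrX:1612015-1612214: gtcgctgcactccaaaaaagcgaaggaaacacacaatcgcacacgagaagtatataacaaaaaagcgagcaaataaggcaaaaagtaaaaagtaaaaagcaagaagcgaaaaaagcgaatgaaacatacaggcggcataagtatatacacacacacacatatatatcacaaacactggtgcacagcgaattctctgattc
Blimp-1, strongest summit, chr3L:5637627-5637826: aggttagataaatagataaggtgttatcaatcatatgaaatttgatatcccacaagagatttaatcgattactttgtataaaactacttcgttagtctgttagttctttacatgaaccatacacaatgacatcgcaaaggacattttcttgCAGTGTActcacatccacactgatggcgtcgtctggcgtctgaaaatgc
The window at the strongest Eip78C summit held none of the marked words. Neither br window held one either, and its strongest summit lay beside a run of 21 identical bases. The shortened Eip74EF window held a CACTGAG that overlaps a TGCACTG.

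Each peak carries the authors' signal, in the peak caller's units on a scale that is not stated, and its rank counts down from the strongest of the 5944. Signal in the reproducible list had a median of 278, with quartiles of 196 and 471. Relaxed lists of 30000 peaks, background included, were deposited for replicate 1, replicate 2 and both pooled. All 5944 reproducible peaks were the strongest of the pooled list. Read depth is unknown.

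Eip75B held 17 reproducible summits, Eip74EF 9, Eip78C 4, Blimp-1 3 and br 2. Together they numbered 35 where 15.5 were expected, since the loci cover 0.262% of the bases counted. By length, 5.27 were expected in Eip75B, a 3.22-fold excess that passed the threshold of 0.05 (two-sided exact binomial test, Benjamini-Hochberg adjusted over 13945 genes, adjusted p = 0.00986). The same test called 0.832% of all genes in either direction and 0.774% with more summits than expected. Only 8 genes held more summits than Eip75B. Its call was lost with the gene body alone (15 summits, 2.97-fold, exact test adjusted p = 0.0599) and with the 2972 strongest peaks (9 summits, 3.41-fold, adjusted p = 0.198). Over all alternatives its adjusted p ran from 1.46e-06 to 0.198.

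Eip74EF, with 3.09-fold more summits than the 2.91 expected, did not pass (adjusted p = 0.179, exact binomial test). It passed when replicate 2's own 5944 strongest peaks replaced the list (11 summits, 3.77-fold, exact test adjusted p = 0.0304), and it did not with those of replicate 1 (8 summits, 2.74-fold, adjusted p = 0.344). Eip78C held 4 summits against 1.99 expected and Blimp-1 held 3 against 1.16, each with an adjusted p of 1.00. The br locus held 2 against 4.21, a fold of 0.475 (exact test adjusted p = 1.00), and 4.35 were expected from the X chromosome alone. With so few summits expected at br, a deficit there was not detectable: 0 summits, as with replicate 2's own peaks, gave an exact test adjusted p of 0.676. Each locus had at least 1 reproducible summit, which 27.3% of protein-coding genes had. That share is over loci of all lengths, and a longer locus is more likely to hold a summit by length alone. The tests describe the authors' list of peaks and not the spread between animals.

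**Figure D1:**
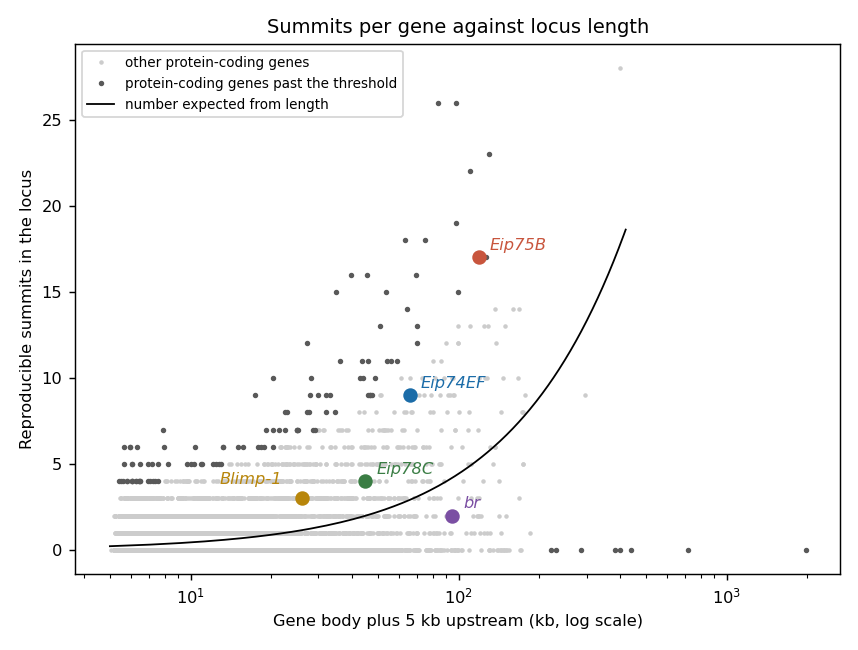
Number of reproducible summits in each protein-coding gene's locus against the length of the locus in kb on a log scale, with the number expected from length as a line. Dark points are genes past the threshold. Eip75B (17 summits) stands far above the line, Eip74EF (9) above it, and br (2) below it.

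The plot of summits against locus length sets the genes apart by density too. Eip75B had 1.43 summits per 10 kb of locus, Eip74EF 1.37, Blimp-1 1.15, Eip78C 0.891 and br 0.211. Thus br, at 94.7 kb longer than all the others except Eip75B at 119 kb, had the fewest summits.

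Eip74EF (FBgn0000567, 3L:17558672-17619325, minus strand) encodes an ETS-domain factor made in a long and a short form from separate promoters. Its 5 annotated isoforms begin at 3 start sites, and 2 of these had a reproducible summit within 500 bp. The strongest summit, at 17578545, had a signal of 1298 and rank 157. It measured 666 and 645 in replicates 1 and 2, so the replicates were nearly equal there. It lay in intron 5 of Eip74EF-RA, which spans 31734 bp, and 1919 bp upstream of the start of Eip74EF-RB. A second summit, at 17577108 and 482 bp upstream of that start, had a signal of 537 (241 and 285 in replicates 1 and 2). Between them a weaker one, at 17577307, had 169 (50.2 and 99.8). The internal promoter of Eip74EF-RB thus had 3 summits within 2 kb of it, all on its upstream side. The nearer 2 lay 199 bp apart in overlapping peaks, so they cannot be counted as separate sites by position alone.

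At the 5′ end of Eip74EF, where isoforms RA, RC and RE start, there were 2 weak summits. The nearer, 38 bp upstream at 17619363, measured 255, with 78.2 and 171 in replicates 1 and 2. The farther, 243 bp upstream at 17619568, had 161 (57.4 and 106), in a peak that overlaps that of the nearer. Replicate 2 was higher at both. The start of Eip74EF-RD, 788 bp from the nearest reproducible summit, had none within 500 bp in any of the lists.

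The other 4 Eip74EF summits lay in introns away from start sites. One in the first intron, 7878 bp from the start at 17611447, had a signal of 403 (174 and 233). A pair downstream of the internal promoters, 9242 and 11244 bp from the Eip74EF-RD start, had 517 (242 and 276) and 219 (99.8 and 118). The weakest, at 17591169, had 155, with 97.5 in replicate 1 and 47.1 in replicate 2. It was the only Eip74EF summit that was clearly higher in replicate 1, by 1.05 on the log2 scale.

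Eip75B (FBgn0000568, 3L:17950953-18064696, minus strand) encodes a heme-binding nuclear receptor whose isoforms differ in their first exons. It has 7 isoforms with a start site each. The strongest summit, at 18009179, reached a signal of 1150 and rank 243 (543 and 599 in replicates 1 and 2). It lay in intron 3 of Eip75B-RF, 9358 bp upstream of the start of Eip75B-RC. This intron spans 65240 bp, holds the starts of other isoforms and contained 9 of the 17 summits.

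Summits of high signal were gathered ahead of and around the Eip75B-RC start. Going towards it, the summit at 18011927 had a signal of 658 (314 and 351), followed by the 1150 already given. The next, 5428 bp from the start at 18005249, had 733 (325 and 407). At the start itself, 67 bp downstream at 17999754 and within the 5′ UTR, it was 696 (313 and 386). A further one 7459 bp past the start, in the next intron, had 640 (322 and 311). All 5 ranked between 243 and 910, and replicates 1 and 2 were close at each.

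Of the remaining start sites of Eip75B, RA was bound. Its summit lay 152 bp downstream, in the 5′ UTR at 17971287, with a signal of 223 (84.4 and 137). Just outside the window were the 5′ end of the gene, with summits 504 and 707 bp upstream of Eip75B-RF at 376 (186 and 200) and 235 (96.5 and 50.4), and Eip75B-RE, with one 555 bp upstream at 170 (86.0 and 90.8). The Eip75B-RD start had only a relaxed-list summit, of 71.7 in the pooled list. RB and RG had none within 500 bp in any list.

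The other summits of Eip75B were scattered through its long introns. The one at 18037652, 11620 bp upstream of Eip75B-RG, was the second strongest of the gene at 775 (354 and 425). A neighbour at 18038437 had 282 (157 and 140) and lay within 500 bp of the start of lncRNA:CR45922, a non-coding gene inside the intron. This was the only summit of the 35 near a start of another gene, so it cannot be assigned to Eip75B by position alone. The remaining 6 had signals of 175 to 334. Among them the one at 17978637 had 54.0 in replicate 1 and 121 in replicate 2.

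Eip78C (FBgn0004865, 3L:21226609-21266503, plus strand) encodes a nuclear receptor related to Eip75B. All 4 summits lay in a single intron of 31685 bp, intron 3 of Eip78C-RA. The strongest, at 21253889, had a signal of 1634 and rank 76, the highest of the 35, with 830 and 804 in replicates 1 and 2. It lay 13542 bp past the start of Eip78C-RB, the nearest start site. The summit 742 bp before it had 524 (195 and 337), and those at 21251550 and 21243569 had 354 (145 and 207) and 187 (63.8 and 122). Replicate 2 was higher at the 3 weaker summits and replicate 1 slightly higher at the strongest. No start site of Eip78C had a reproducible summit within 500 bp. In the relaxed lists the Eip78C-RB start had 38.9 in the pooled list and 50.1 in replicate 2, and no summit in replicate 1.

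The br gene (FBgn0283451, X:1575132-1664869, plus strand) encodes the Broad-Complex zinc finger proteins, which share a BTB domain and are needed for metamorphosis. It has 16 isoforms from 9 start sites, the most of the 5 genes. Its summits were weak. The one at 1612115 had a signal of 159 and rank 5562, with 75.4 and 78.9 in the replicates. It lay 193 bp upstream of br-RP and 226 bp upstream of a start shared by 8 isoforms, so that 1 summit accounts for both bound start sites. The other, at 1607893, had 176 and rank 4998 (91.5 and 83.5), and lay 976 bp upstream of br-RH in an intron of 48416 bp. Its peak was 132 bp wide, against a median of 460 bp in the list. Both lie inside Mur2B as well, a gene on the opposite strand that spans br.

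Below the reproducible list, br had many more summits. The pooled list held 37 in its locus, and 2 of them (5.41%, exact 95% interval 0.661 to 18.2%) were in the reproducible list. That list took in 19.8% of the whole pooled list, namely its strongest peaks. The share therefore counts summits by signal and does not measure agreement between replicates. The highest outside the reproducible list had 122, with matching summits of 62.1 and 43.2 in replicates 1 and 2. Near start sites there were summits of 114 at br-RC and 116 at br-RI in the pooled list, with 65.4 and 62.5 in replicate 1 and 53.9 and 48.6 in replicate 2. By the count of pooled summits br was above its expected 21.2 (1.74-fold, exact binomial adjusted p = 0.0537), the opposite direction to the reproducible list.

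Blimp-1 (FBgn0035625, 3L:5630983-5652094, plus strand) encodes a zinc finger repressor that is induced by ecdysone and keeps ftz-f1 silent while hormone is high. Its 3 summits lay in the first intron of Blimp-1-RF, 12605 bp long, around the start of Blimp-1-RC. The strongest, at 5637727 and 1712 bp past that start, had a signal of 254 and rank 3330 (109 and 151). The others lay 528 bp and 2251 bp upstream of it with 209 (96.6 and 110) and 210 (81.5 and 117). Replicate 2 was higher at all 3. None of the 4 start sites was bound within 500 bp. The 5′ end, shared by 3 isoforms, had only relaxed-list summits of 55.9 in the pooled list, 34.8 in replicate 1 and 24.5 in replicate 2.

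**Figure D2:**
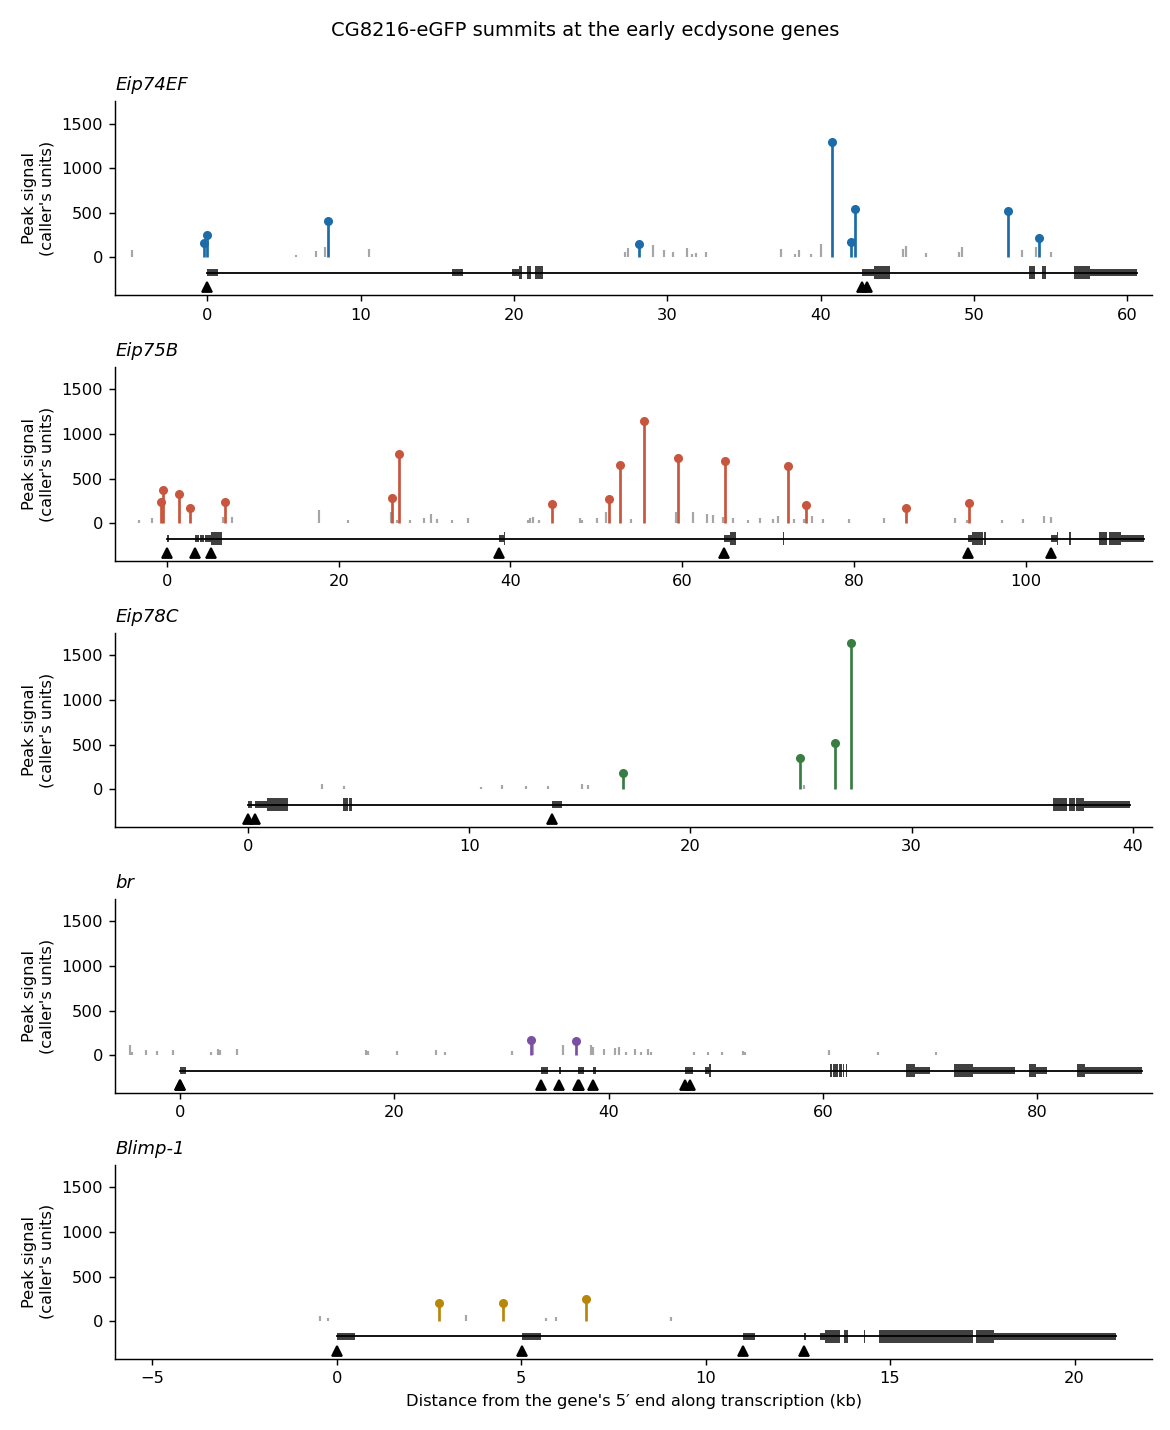
Signal of each summit, in the caller's units, against distance in kb from the gene's 5′ end along transcription, 1 panel per gene. Coloured stems are reproducible summits, short grey ticks are the pooled list's other summits, triangles are start sites, and boxes are exons with coding sequence thicker. The tallest stems, 1298, 1150 and 1634, stand in introns of Eip74EF, Eip75B and Eip78C, and no stem of br or Blimp-1 exceeds 254.

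In the plot of signal along each gene, few of the tall stems stand on a triangle. Of the 26 start sites of the 5 genes, 6 (23.1%) had a reproducible summit within 500 bp, where 10.3% of all 19607 protein-coding start sites did. These belonged to 3 genes, Eip74EF, Eip75B and br, and 10.9% of protein-coding genes had such a start site. That share was not matched for the number of start sites, which was 26 for the 5 genes and 19607 for all 13945. A gene with more start sites is more likely to have a bound one by number alone. Start sites of a gene share summits, so the 6 are not independent. With a window of 1000 bp the number was 11, and with the 2972 strongest peaks it was 2, namely Eip74EF-RB and Eip75B-RC.

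By distance to the nearest start site of its own gene, 6 summits lay within 500 bp, 6 beyond that but within 1000 bp, 6 farther still but within 5 kb, and 17 beyond 5 kb, with a median of 3222 bp. There were 31 within the gene bodies and 4 upstream, all 4 at Eip74EF and Eip75B. Introns held 29, the 5′ UTRs of Eip75B isoforms 2, and coding sequence and 3′ UTRs 0. The 5 kb limit upstream cut through no group of summits. The farthest summit inside it lay 243 bp upstream of Eip74EF and 707 bp upstream of Eip75B, with none for the other genes. The nearest outside lay 34386 bp upstream of Eip74EF, 11256 bp of Eip75B, 49489 bp of Eip78C, 91841 bp of br and 19075 bp of Blimp-1.

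**Figure D3:**
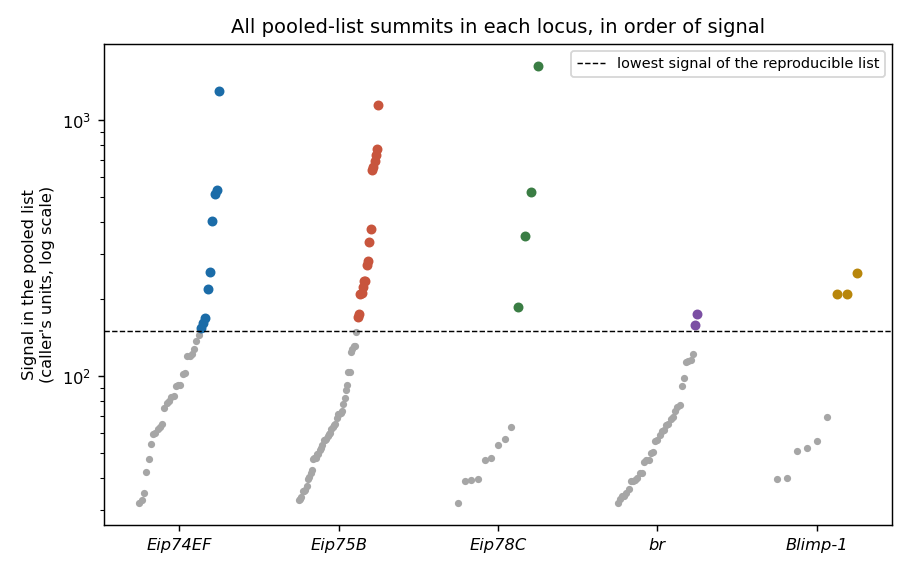
Signal, in the caller's units on a log scale, of every pooled-list summit in each locus, in order of signal. Coloured points are in the reproducible list and grey points are not, and the dashed line is the lowest signal of that list. Points of br rise no higher than 176, just over the line, while those of Eip74EF, Eip75B and Eip78C pass 1000.

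The plot of ordered pooled signals shows how the genes met the limit of the reproducible list, at a signal of 150. In Eip74EF and Eip75B signals ran without a gap through it, from 145 to 155 and from 149 to 170. In Eip78C and Blimp-1 there was a gap, from 63.2 to 187 and from 69.5 to 209. The share of pooled summits in the reproducible list was a share above this limit of signal, not a measure of replicate agreement. With exact 95% intervals, it was 25.0% (12.1 to 42.2%) of 36 in Eip74EF and 27.4% (16.9 to 40.2%) of 62 in Eip75B. It was 30.8% (9.09 to 61.4%) of 13 in Eip78C and 33.3% (7.49 to 70.1%) of 9 in Blimp-1. These intervals cover counting error only, and all but that of br include the 19.8% of the whole list.

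The signals of the 35 summits ran from 155 to 1634 with a median of 255, beside 278 for the whole list. Those over 500 numbered 11 (31.4%, against 23.1% of all reproducible peaks), and 3 exceeded 1000, a level that 5.91% of all peaks reached. The 3 were the strongest summits of Eip74EF, Eip75B and Eip78C. Summed over its summits, signal was 7376 in Eip75B, which ranked 13 among protein-coding genes, 3714 in Eip74EF (rank 87), 2698 in Eip78C (rank 198), 673 in Blimp-1 (rank 1562) and 335 in br (rank 2529). A longer locus can gather a larger sum.

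All 35 summits had a matching summit within 100 bp in both replicates, as did 94.6% of the whole list. Expressed as log2 of replicate 1 over replicate 2, the signals had a median ratio of -0.19 with an SD of 0.48 over the 35, beside -0.16 and 0.44 over all matched peaks. Replicate 1 was the lower at 27 of the 35, and the median below 0 over all matched peaks means it was lower at most of those too. There were 4 summits more than 2 SD from the overall median, where 5.21% of all peaks were. They were the Eip74EF summits at 17619363 (-1.13) and 17591169 (1.05) and the Eip75B summits at 17978637 (-1.17) and 18065403 (0.94), none with a signal over 255. The reproducible list was made from these replicates, so a match in both is partly built in.

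**Figure D4:**
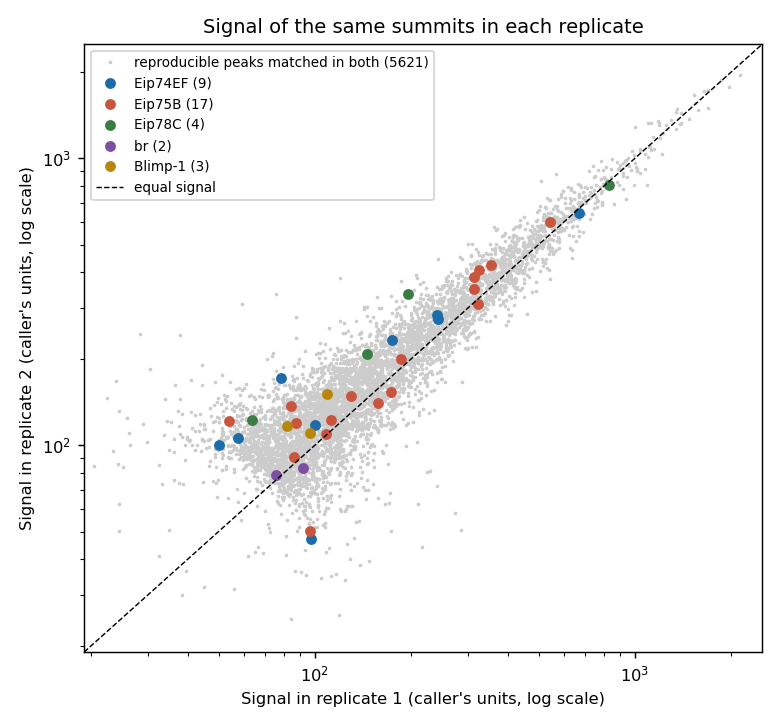
Signal in replicate 2 against signal in replicate 1, in the caller's units on log scales, for the 35 summits by gene and, in grey, all 5621 reproducible peaks matched in both. The dashed line marks equal signal. The strongest summits of Eip74EF, Eip75B and Eip78C lie near the line, and the points farthest from it are weak summits of Eip74EF and Eip75B.

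The plot of replicate signals shows the strongest summits of Eip74EF, Eip75B and Eip78C near equality. The Eip78C summit of 524 lay farther from it, with 195 and 337 in replicates 1 and 2. The strongest summit of Eip74EF ranked 136 in replicate 1 and 176 in replicate 2, that of Eip75B 258 and 234, and that of Eip78C 70 and 86. For Blimp-1 the ranks were 3716 and 3017. For br they were 4480 and 6150, so replicate 2 alone did not hold it among its 5944 strongest peaks.

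Short words were counted in the 200 bp around each summit, on both strands. CAGTGTA or CAGTGCA occurred at 5 of the 35 summits (14.3%, exact 95% interval 4.81 to 30.3%), beside 17.2% of all reproducible summits. Windows 500 bp to either side held one in 7.14% (5 of 70) for the 35 summits, which lies within that interval, and in 4.79% for all summits. These words were chosen with earlier results of these peaks known. They lay at both start-site summits of the Eip74EF 5′ end, at the strongest Eip75B summit, which held TACACTG 71 bp before and CAGTGTA 86 bp after the summit, and at 2 Blimp-1 summits, and at none of Eip78C or br. Loci held many such words without a summit. Of 103 in the 5 loci, 7 (6.80%, exact 95% interval 2.78 to 13.5%) lay within 100 bp of a summit. Over the genome it was 3.50% of 35186, which lies within that interval. The loci also held 35 summits where 15.5 were expected, and the share was not adjusted for that. In br it was 0 of 24 (exact 95% interval 0 to 14.2%).

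CACTGAG, which can overlap the reverse strand of CAGTGCA or CAGTGTA, was found at 1 summit (2.86%, against 6.71% of all). GGTCA, the core of nuclear receptor elements, was at 7 summits (20.0%, against 14.7% of all reproducible summits). In windows 500 bp to either side of the 35 summits it was more frequent, at 28.6% (20 of 70), and in such windows beside all summits it was at 18.7%. The strongest Eip74EF summit held it as TGACC 81 bp before and 52 bp after the summit. GAGAG, the word bound by GAGA factor, was at 10 (28.6%, against 25.4% of all), and in 40.0% of the windows beside the 35 summits. The ETS words CCGGAAG or CCGGAAA were at 1 (2.86%, against 1.80%) and the E-box CACGTG at 0 (exact 95% interval 0 to 10%, against 1.40%). GC content averaged 34.8% in the 35 windows and 46.4% in windows 500 bp to either side of them. For all reproducible summits these values were 35.9% and 43.2%. A match is a description of letters and not a site of binding.

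Other genes of the ecdysone response were counted the same way. Of 28 listed, 27 could be tested, and 20 of these held a reproducible summit in their locus, beside 27.3% of all protein-coding genes. The median was 1.00 summits, beside 0 over all genes, and the median ratio to the number expected from length was 1.76. Neither the 27.3% nor the median over all genes was matched for locus length. The test called 2 with more summits than expected, beside 0.774% of all genes, and 0 with fewer. The called genes were vri, a bZIP repressor of the circadian clock, with 8 summits against 1.21 (adjusted p = 0.00997), and E23, an ABC transporter induced by ecdysone, with 7 against 1.11 (adjusted p = 0.0254), by the exact binomial test above. Those with the most summits were Eip63E, a cyclin-dependent kinase, with 12 and tai, a coactivator of EcR, with 10. Neither passed (exact test adjusted p = 0.153 and 0.287). EcR itself held 5 summits against 3.83 expected, and ftz-f1, the target of Blimp-1, held 7 against 2.47 (exact test adjusted p = 0.444).

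Genes most like each of the 5 were found by locus length, number of summits and strongest signal, as the sum of the differences on the log2 scale over 3 measures among 3804 other genes. Eip74EF, with 9 summits over 65.7 kb, lay nearest to the nuclear receptor gene Hr4 (9 summits over 71.0 kb, strongest 1400) and then to pnt, which encodes another ETS factor (10 over 60.9 kb, strongest 1325). Eip75B was nearest to Svil (17 over 127 kb, strongest 1217) and mtgo (17 over 123 kb, strongest 1379). Eip78C was nearest to dpp, a BMP ligand (4 over 36.5 kb, strongest 1864), and Mhcl (4 over 35.2 kb, strongest 1351). For br these were Ddr (2 over 75.3 kb, strongest 166) and CG44837 (1 over 93.2 kb, strongest 180), and for Blimp-1 l(1)G0196 (3 over 25.9 kb, strongest 277) and CG12991 (3 over 24.5 kb, strongest 245).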

How the data were processed

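CG8216-eGFP was mapped by ChIP-seq in 2 replicates of 1 group. The authors deposited a relaxed peak list per replicate, one for both pooled, and a list called reproducible here, kept by IDR (irreproducible discovery rate). The aligner, the peak caller and the IDR cutoff were not given in the sources used here. Each peak's deposited signal is in the caller's units and was not rescaled here between lists. Whether it was scaled for read number is not known. No read counts are given, so depth is unknown. Lists on dm3 and control libraries were not used.

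Summits, 1-based, were placed on Ensembl release 115 gene models over X, 2L, 2R, 3L, 3R and 4. For every protein-coding gene the number in its locus was compared with the locus's share of bases. Loci of neighbouring genes can overlap, so a summit can count for several genes. The 5 genes, the word and gene lists and the tests were chosen with earlier results of these data known. All 5 genes and all 35 summits are described; of the other ecdysone genes, those called or with the most summits, EcR and ftz-f1 are named, the last pair by choice after their values were seen. Eip55E and Eip71CD were matched as Cth and MsrA, and let-7-C was not tested. Intervals are exact (Clopper-Pearson, 95%). The gene test was tested on simulated data, with summits placed independently of one another. In the reproducible list 30.6% of summits had another within 1 kb, and how the test behaves with such clustering was not tested. Alternatives were other peak lists, locus limits, windows and expectations. Python 3.11.15 was used with SciPy 1.17.1 for the tests, pandas 2.3.3 and NumPy 2.4.6 for tables, and matplotlib 3.10.9 for plots.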

Additional observations from a re-analysis of the deposited data

How the results depend on the processing

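No paired analysis was possible because there was only 1 group. With the 2972 strongest peaks the excess at Eip75B was 3.41-fold and no longer passed (adjusted p = 0.198, exact binomial test). Blimp-1 then had 0 summits in place of 3, br 0 in place of 2, Eip74EF 4 in place of 9 and Eip78C 3 in place of 4. Of the start sites 2 were bound in place of 6. With the gene body alone Eip75B was at 2.97-fold (exact test adjusted p = 0.0599). Where summits within 500 bp were chained and 1 kept per chain, Eip74EF held 7 (2.62-fold, exact test adjusted p = 0.715). Eip75B then held 16 and still passed (3.31-fold, exact test adjusted p = 0.0170). With the pooled relaxed list Eip74EF passed at 2.45-fold (36 summits, exact test adjusted p = 3.34e-04), and br turned from 0.475-fold to 1.74-fold (37 summits against 21.2, adjusted p = 0.0537). That list includes background. A window of 1000 bp gave 11 bound start sites. The causes of these changes were not tested.

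Taking each replicate's own 5944 strongest peaks, the fold ran from 2.74 to 3.77 in Eip74EF, 3.22 to 3.41 in Eip75B, 1.51 to 2.01 in Eip78C and 0 to 0.475 in br, and was 2.59 in Blimp-1. Bound start sites ran from 4 to 6. Eip74EF passed without replicate 1 (3.77-fold, exact test adjusted p = 0.0304). Over all genes, those called with more summits numbered 108, and 39 with the 2972 strongest peaks, 47 with gene bodies alone, 173 with 10 kb upstream, 55 with a single summit per chain within 500 bp, and 327 with the pooled list. Within 50 bp, 28 of the 35 summits matched in both replicates, and within 250 bp 35. Interval overlap, the gene's own chromosome arm and bases outside coding sequence kept every direction and call of the 5 genes. Unknown read depth limits any comparison of signal between lists.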
